A study of Mus musculus with 12 samples.

Results

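The genes of oxidative phosphorylation were followed in the renal cortex of mice with and without Gpx3 in tubular epithelial cells, after ischemia-reperfusion injury (IRI) or sham surgery. Members were the protein-coding genes with deposited transcripts whose symbols start with Nduf, Uqcr, Sdha to Sdhd, Atp5 or Cox4 to Cox8, together with Cyc1 and the protein-coding genes of the mitochondrial genome. They numbered 105 of the 13465 genes in the deposited table. Of these, 92 are encoded in the nucleus and 13 on mitochondrial DNA, and all were among the 12469 genes tested. By complex they comprised 43 complex I subunits, 8 complex I assembly factors named Ndufaf, 4 subunits of complex II, 10 of complex III, 21 of complex IV and 19 of complex V. The complex IV count includes Ndufa4 and Ndufa4l2. Symbols of this kind name 107 protein-coding genes in GENCODE M21, and Cox7b2 and Cox8c had no transcript in the table.

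Each of the 4 groups had 3 libraries: Gpx3 conditional knockout after IRI (CKO IRI), wild type after IRI (WT IRI), knockout after sham surgery (CKO sham) and wild type after sham surgery (WT sham). IRI was 30 min of ischemia of both kidneys followed by 48 h of reperfusion. The knockout was restricted to renal tubular epithelium per the series text, and the labels give neither the Cre driver nor the strain, sex or age of the mice. Sham libraries carry the numbers 1, 2 and 3, CKO IRI libraries the numbers 7, 15 and 29, and WT IRI libraries the numbers 13, 24 and 49. The labels do not say whether each library is from its own animal. The p-values therefore describe variation among libraries, part of which may be technical. The targeted gene was at 2501, 3037 and 3299 FPKM in CKO sham and at 5664, 4476 and 5371 FPKM in WT sham, which did not overlap. After IRI, Gpx3 was at 3723, 3025 and 2779 FPKM in the libraries labelled CKO IRI and at 2788, 3568 and 1075 FPKM in those labelled WT IRI, so it did not separate the genotypes. All 8 proximal tubule markers were in the table, and their summed values reached 2514 to 6499 FPKM in CKO IRI, 1496 to 4295 in WT IRI, 7593 to 9487 in CKO sham and 7425 to 7718 in WT sham. WT IRI 13 stood apart among the members: its 92 nuclear genes differed from the WT sham mean with an SD of 0.67 on the log2 scale, against 0.32 to 0.46 in the other 5 IRI libraries. Within the sham libraries CKO sham 1 had the largest SD, 0.40.

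Oxidative phosphorylation couples the oxidation of NADH and succinate to ATP synthesis in the inner mitochondrial membrane. Complexes I and II feed electrons through ubiquinone to complex III, cytochrome c and complex IV, and the proton gradient that complexes I, III and IV build is used by complex V, the ATP synthase. Complexes I, III, IV and V are assembled from proteins of both genomes, complex II is wholly nuclear, and the many small supernumerary subunits are nuclear. The proximal tubule, which fills most of the renal cortex, relies on this pathway for solute transport.

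The mitochondrial members lie close together on a circular genome and are copied as long polycistronic RNAs, from which most mRNAs are cut at intervening transfer RNAs. The exceptions matter for reading the values below, because mt-Atp8 and mt-Atp6 are kept on a single RNA with overlapping reading frames, as are mt-Nd4l and mt-Nd4. The junctions are shown from the GENCODE M21 transcripts (GRCm38, plus strand) as chrM:7867-8029 and chrM:10107-10233, with the bases that both genes of a pair share in capitals, 43 bases in the first and 7 in the second.
mt-Atp8 into mt-Atp6: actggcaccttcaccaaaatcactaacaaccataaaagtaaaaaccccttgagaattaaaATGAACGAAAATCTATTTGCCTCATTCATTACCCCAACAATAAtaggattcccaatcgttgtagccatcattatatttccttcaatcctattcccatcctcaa
mt-Nd4l into mt-Nd4: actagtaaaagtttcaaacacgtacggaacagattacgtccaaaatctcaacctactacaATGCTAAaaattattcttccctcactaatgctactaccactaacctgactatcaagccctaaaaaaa
Annotated mt-Atp6 also shares 1 base with mt-Co3, and mt-Nd5 shares 14 bases with mt-Nd6, which is read from the opposite strand. Among nuclear members described below, Atp5a1 overlaps Haus1, Ndufa4l2 overlaps Shmt2 and Ndufs1 overlaps Eef1b2 and Ino80dos, each on the opposite strand. Further opposite-strand overlaps are of Cox6a2 with Itgad, Uqcrc2 with Pdzd9, Ndufa2 with Tmco6, Atp5d with Cbarp and Cox6c with Vps13b. These are examples, as other nuclear members overlap annotated genes too. No source used here says how reads were divided between overlapping genes, so values of overlapping genes are uncertain to that extent.

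Promoter windows of RefSeq (GRCm38.p6), running from 250 bases before to 50 bases after a gene's start, were matched for 73 of the 92 nuclear members. They were searched on both strands for the exact letters of 3 motifs, none of which contains another: those of NRF1, known as a regulator of respiratory genes, of YY1 and of the ETS family. The NRF1 motif GCGCATGCG was found in 10 of these 73 members (13.7%) and in 3.84% of all genes with a window. The 10 were Ndufa8, Ndufa11, Ndufaf4, Ndufaf5, Uqcrc1, Uqcr11, Cox6a1, Atp5g2, Atp5k and Atp5l. The YY1 motif AAGATGGCG was found in 8 of the 73 members (11%) and 3.35% of all genes, and the ETS motif CCGGAAGT in 6.85% of the members and 8.67% of all genes. Of the genes with the NRF1 motif, Uqcrc1 (chr9:108936398-108936697, plus strand) and Cox6a1 (chr5:115348909-115349208, minus strand) are shown with it in capitals. The capitals join overlapping matches on both strands, GCGCATGCG and its reverse complement CGCATGCGC. Levels of Uqcrc1 and Cox6a1 serve below as partners of genes that changed.
Uqcrc1: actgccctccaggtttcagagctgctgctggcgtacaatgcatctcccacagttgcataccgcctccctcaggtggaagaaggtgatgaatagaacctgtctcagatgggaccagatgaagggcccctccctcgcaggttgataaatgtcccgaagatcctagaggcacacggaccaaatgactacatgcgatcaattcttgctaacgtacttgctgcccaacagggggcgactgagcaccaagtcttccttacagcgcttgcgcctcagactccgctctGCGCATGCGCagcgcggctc
Cox6a1: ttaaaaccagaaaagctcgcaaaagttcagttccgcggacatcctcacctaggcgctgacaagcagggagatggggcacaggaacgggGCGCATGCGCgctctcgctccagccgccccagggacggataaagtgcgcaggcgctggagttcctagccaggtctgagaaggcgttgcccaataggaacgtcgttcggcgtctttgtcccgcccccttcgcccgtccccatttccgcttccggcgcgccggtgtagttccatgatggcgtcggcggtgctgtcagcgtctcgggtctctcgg
Windows of Sdha (chr13:74350191-74350490, minus strand) and Atp5b (chr10:128083057-128083356, plus strand), both of which fell in WT IRI as described below, held none of the 3 motifs in these exact letters. The same was so for most of the 73 members. None of the 10 genes with the NRF1 motif passed the test described below in any comparison. As 14 of 105 members passed in WT IRI against WT sham, none among 10 says little about the motif. No window was matched for Ndufs1, Uqcrc2, Atp5a1, Ndufa2, Ndufa4l2 and Cox6a2, which did pass there.

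Deposited values, read as FPKM (fragments scaled to transcript length and library size) and summed over the transcripts of a gene, are scaled per length and can be compared between genes. In WT sham kidneys mt-Co1, the catalytic subunit of complex IV, was the highest member at 6515 ± 126 FPKM (SD, n = 3), followed by mt-Cytb, the cytochrome b of complex III, at 5265 ± 77.0 FPKM. The highest nuclear member was Atp5b, the catalytic beta subunit of ATP synthase, at 933 ± 7.59 FPKM, and the lowest was Cox4i2, a lung-enriched form of Cox4i1, at 1.22 ± 0.304 FPKM. The 8 assembly factors lay at 5.42 to 35 FPKM in WT sham means, below every structural subunit other than Atp5s and the tissue-restricted paralogues Cox4i2, Cox6a2, Cox6b2, Cox8b and Ndufa4l2. mt-Nd6, the member read from the other strand of mitochondrial DNA, was at 102 ± 17.2 FPKM, whereas the other 12 mitochondrial members had means between 699 and 6515 FPKM.

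The 13 mitochondrial members together made up 9.65%, 10.22% and 8.68% of the summed FPKM of CKO IRI libraries 7, 15 and 29, and 3.94%, 10.01% and 7.37% of that of WT IRI libraries 13, 24 and 49. In sham kidneys they made up 12.32%, 10.98% and 11.09% in CKO and 9.46%, 10.21% and 9.76% in WT. CKO sham thus lay above WT sham in every library, and CKO IRI below CKO sham in every library, while the WT IRI libraries ranged from far below the WT sham libraries (13) to within their range (24). The 92 nuclear members made up 4.78%, 5.98% and 4.30% in CKO IRI, 5.05%, 3.97% and 5.06% in WT IRI, 5.77%, 5.34% and 5.29% in CKO sham and 5.0%, 4.90% and 4.79% in WT sham. The ratio of mitochondrial to nuclear values was 2.02, 1.71 and 2.02 in CKO IRI, 0.78, 2.52 and 1.46 in WT IRI, 2.14, 2.06 and 2.1 in CKO sham and 1.89, 2.09 and 2.04 in WT sham. WT IRI held both the lowest and the highest ratio of the 12 libraries, and the ratios of the 2 sham groups overlapped. In bulk tissue such differences cannot tell fewer cells rich in mitochondria from less of these RNAs per cell.

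**Figure D1:**
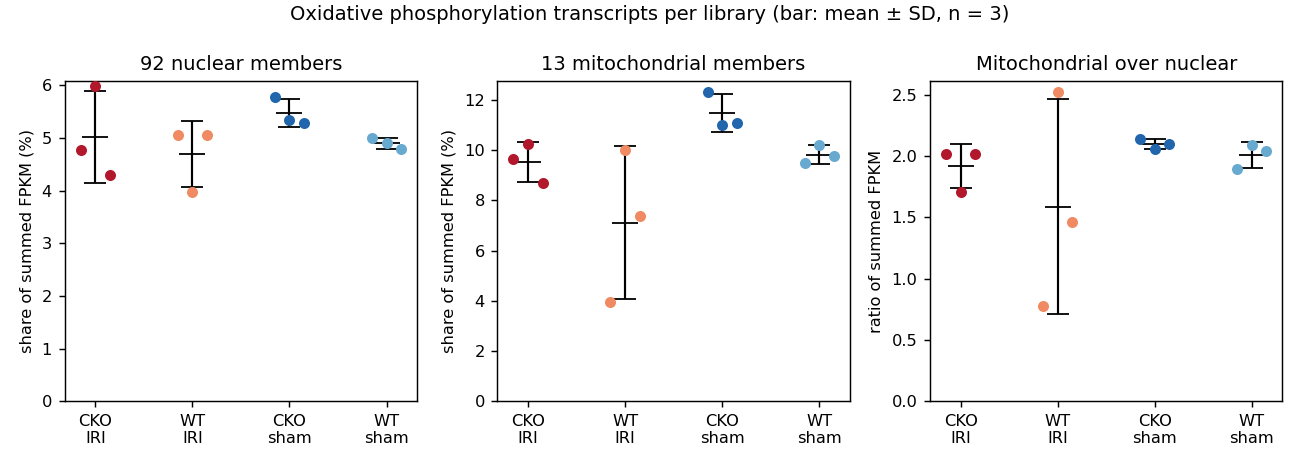
Share of summed FPKM held by the 92 nuclear and the 13 mitochondrial members (percent) and the ratio of their summed values, 1 point per library in CKO IRI, WT IRI, CKO sham and WT sham; the black marks are the mean and SD of 3 libraries. The mitochondrial share was between 10.98% and 12.32% in CKO sham and between 9.46% and 10.21% in WT sham, and it spread from 3.94% to 10.01% in WT IRI.

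In WT kidneys most members did not pass the test after injury, and lower calls were no more frequent among members than among all genes. The falls that held in every alternative analysis were of large catalytic or core subunits of complexes I, II, III and V, though other core subunits did not pass. Of the 105 members, 14 passed (limma on log2(FPKM + 1), Benjamini-Hochberg adjusted p under 0.05 over all 12469 genes), against 37.0% of all tested genes. Higher calls numbered 4, where 25.1% of all genes were called higher, and lower calls 10, where 11.9% were called lower. The median log2 change was -0.07 over nuclear members and -0.57 over mitochondrial members, beside 0.12 over all tested genes. Calls that survived each of the 21 alternative analyses were the falls of Ndufs1, Sdha, Uqcrc2, Atp5b and Atp5a1 and the rises of Cox6b2 and Ndufa4l2. A fit of only the WT IRI and WT sham libraries called 9 members, these 7 with Cox8b and Ndufa1, and the count was 7 without WT sham 1 or 2 and 9 without WT sham 3. For these alternative fits the share of all genes called is not given. In 26 members every WT IRI library was below every WT sham library, where 19.5% of all genes were, and in 9 every WT IRI library was above, where 35.2% were. Summed proximal tubule markers, as given above, were lower in every WT IRI library than in any WT sham library. Kap made up much of the sum, at 483, 286 and 2274 FPKM in WT IRI and 4195, 4485 and 4115 FPKM in WT sham. Of the 8 markers all but Slc7a13 were singly lower in every WT IRI library. Slc7a13 overlapped, at 0.579, 0.0791 and 11.3 FPKM in WT IRI and 0.518, 0.569 and 0.515 FPKM in WT sham. The part of these marker differences in the results was not tested.

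In complex I, Ndufs1, the iron-sulfur subunit at the head of the NADH-oxidizing arm (chr1:63143596-63176833, minus strand), was at 26.9, 27.5 and 44.4 FPKM in WT IRI 13, 24 and 49, against 98.0, 91.4 and 99.5 FPKM in WT sham 1, 2 and 3. Every injured library was at or below 44.4 FPKM and every sham library at or above 91.4 FPKM, a log2 change of -1.56 ± 0.25 (SE; limma adjusted p = 0.0014). The other 6 nuclear core subunits did not pass. Ndufs8, which carries a pair of iron-sulfur clusters on the route to ubiquinone, was at 147, 142 and 190 FPKM in WT IRI and at 175, 172 and 166 FPKM in WT sham, with overlap. The ratio of Ndufs1 to Ndufs8 values was therefore 0.182, 0.194 and 0.234 in WT IRI and 0.560, 0.531 and 0.598 in WT sham. Of 29 supernumerary subunits, the 1 that passed was Ndufa2, a small protein beside Ndufs1 in the NADH-oxidizing arm, which rose. Ndufa2 was at 504, 226 and 258 FPKM in WT IRI and at 187, 168 and 173 FPKM in WT sham (log2 change 0.81 ± 0.28, limma adjusted p = 0.0424). Without WT IRI 13, the highest of these libraries, the rise of Ndufa2 was 0.46 and did not pass (limma adjusted p = 0.123), nor did it in 8 other alternatives, where its adjusted p reached 0.106. The median over the 29 was 0.02, with 16 positive and 13 negative changes.

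The deposited values of Ndufs1 divided between a pair of long transcripts in shares that varied within every group. One was at 9.66, 19.0 and 31.0 FPKM in WT IRI and 32.0, 26.5 and 8.41 FPKM in WT sham, and the other at 17.2, 8.50 and 13.4 FPKM in WT IRI and 63.2, 62.4 and 87.7 FPKM in WT sham.

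Among the complex I assembly factors 1 of 8 passed, Ndufaf1, which helps to build the membrane arm. Ndufaf1 was at 17.6, 13.8 and 14.3 FPKM in WT IRI and at 22.1, 20.2 and 19.4 FPKM in WT sham (log2 change -0.42 ± 0.12, limma adjusted p = 0.0195). Its groups did not overlap, but the call was lost without WT IRI 24, without WT sham 1 or 2, and in the fit of only these groups, with an adjusted p of up to 0.0779. Of the other assembly factors of the 5 complexes, 43 genes from a separate list, 2 were called higher and 5 lower with a median of 0.03. Of all genes 25.1% were called higher and 11.9% lower, so lower calls in this list were near the share of all genes and higher calls below it. The called genes are named as single genes. The genes called lower included Acad9, an acyl-CoA dehydrogenase that also serves complex I assembly (log2 change -1.06, limma adjusted p = 0.00231), and Taco1, a translational activator of mt-Co1 (-0.89, adjusted p = 0.00323).

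Complex II oxidizes succinate and links the chain to the tricarboxylic acid cycle. Its flavoprotein Sdha (chr13:74322254-74350280, minus strand) was at 121, 124 and 187 FPKM in WT IRI and at 297, 292 and 296 FPKM in WT sham, a log2 change of -1.06 ± 0.21 (limma adjusted p = 0.00392) with no overlap. The iron-sulfur partner Sdhb was at 265, 190 and 274 FPKM in WT IRI and at 308, 290 and 291 FPKM in WT sham, and its change of -0.31 did not pass although the groups did not overlap. Thus the ratio of Sdha to Sdhb was 0.456, 0.653 and 0.682 in WT IRI and 0.964, 1.01 and 1.02 in WT sham. Of the membrane anchors, Sdhd was at 107, 149 and 199 FPKM in WT IRI and at 224, 216 and 220 FPKM in WT sham (-0.58 ± 0.20, limma adjusted p = 0.0439). The call was kept in 9 of 21 alternatives and lost, among others, without WT IRI 13 or 24. The other enzymes of the tricarboxylic acid cycle formed a list of 14 genes without the Sdh subunits, of which 10 were lower and none higher with a median of -0.68. Of all genes 11.9% were called lower and 25.1% higher. Dld, the shared lipoamide dehydrogenase, changed by -0.78 (limma adjusted p = 0.00202), and Sucla2, a succinyl-CoA ligase subunit, by -1.04 (adjusted p = 0.00262).

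In complex III the fall was in Uqcrc2, one of the pair of large core proteins (chr7:120635176-120659524, plus strand). Uqcrc2 was at 120, 154 and 195 FPKM in WT IRI and at 265, 264 and 259 FPKM in WT sham, without overlap (log2 change -0.77 ± 0.17, limma adjusted p = 0.00559). Its partner Uqcrc1 was at 255, 216 and 260 FPKM in WT IRI and at 305, 284 and 281 FPKM in WT sham, a change of -0.25 that did not pass. The redox subunits Cyc1 and Uqcrfs1 did not pass either, at 205, 205 and 290 FPKM and at 240, 190 and 251 FPKM in WT IRI, against 309, 293 and 299 FPKM and 298, 278 and 283 FPKM in WT sham. Uqcrc1, Cyc1 and Uqcrfs1 all lay lower in every WT IRI library than in any WT sham library. The 5 supernumerary subunits had a median of 0.12, and none passed. Of the 15 genes for ubiquinone synthesis and cytochrome c, 2 were called lower, near the 11.9% of all genes, and none higher, where 25.1% of all genes were. The 2 were Coq9, a lipid-binding protein of ubiquinone synthesis (-1.03, limma adjusted p = 0.00259), and Coq10b (-0.41, adjusted p = 0.0159).

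In complex V both large subunits of the catalytic head fell. Atp5b (chr10:128083273-128090391, plus strand) was at 316, 436 and 605 FPKM in WT IRI and at 939, 924 and 935 FPKM in WT sham, a log2 change of -1.09 ± 0.24 (limma adjusted p = 0.00589). Atp5a1, the alpha subunit, was at 320, 346 and 477 FPKM in WT IRI and at 602, 575 and 587 FPKM in WT sham, a log2 change of -0.65 ± 0.17 (limma adjusted p = 0.0138). Its adjusted p reached 0.0486 over the alternatives. For both genes WT IRI 49 was the injured library nearest to sham and WT IRI 13 the farthest. None of the other nuclear subunits of the synthase passed, and the 3 central stalk genes had a median of 0.03. The ratio of Atp5b to Atp5d, the delta subunit of that stalk, was 0.768, 1.35 and 1.59 in WT IRI and 2.30, 2.65 and 2.83 in WT sham.

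**Figure D2:**
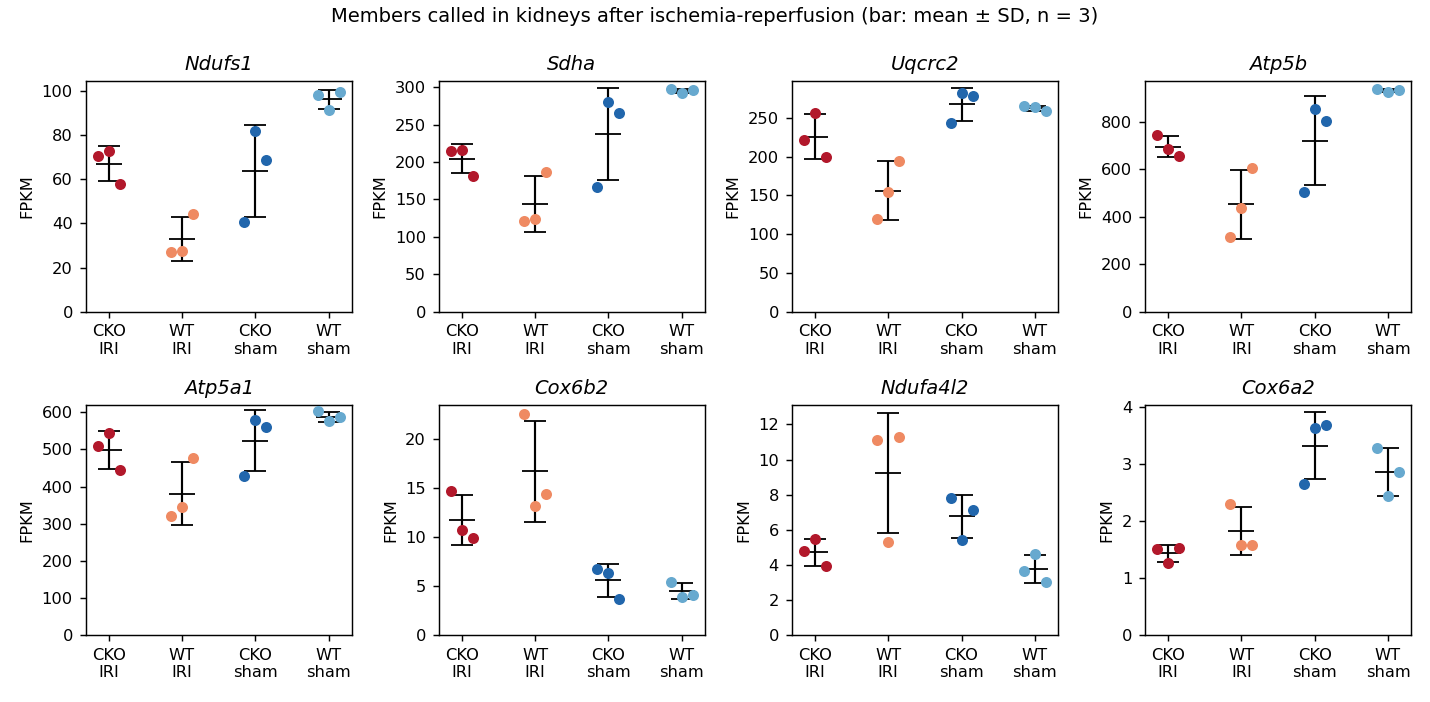
FPKM of 8 called members in each library of CKO IRI, WT IRI, CKO sham and WT sham, with the mean and SD of 3 libraries in black; every axis starts at 0. Ndufs1, Sdha, Uqcrc2, Atp5b and Atp5a1 lay lower in every WT IRI library than in any WT sham library, and CKO sham 1 was the lowest CKO sham library for each of them (40.6 FPKM for Ndufs1).

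In complex IV the calls were of paralogues with restricted expression and of Cox7a2l, and none of the 11 supernumerary or 3 core subunits common to most tissues passed. Cox6b2, known as the testis form of Cox6b1 (chr7:4751792-4753094, minus strand), was at 22.6, 13.2 and 14.4 FPKM in WT IRI and at 5.42, 3.90 and 4.17 FPKM in WT sham (log2 change 1.66 ± 0.25, limma adjusted p = 0.000974). Even so it remained far below Cox6b1, at 622, 456 and 550 FPKM in WT IRI and 492, 469 and 471 FPKM in WT sham, which overlapped. Ndufa4l2, a hypoxia-inducible relative of the complex IV subunit Ndufa4 (chr10:127514967-127517154, plus strand), was at 11.1, 5.31 and 11.3 FPKM in WT IRI and at 3.64, 4.63 and 3.05 FPKM in WT sham. Its groups did not overlap, with WT IRI 24 close to the highest sham library, and the log2 change was 1.05 ± 0.25 (limma adjusted p = 0.00968). Ndufa4 itself was at 231, 232 and 314 FPKM in WT IRI and at 293, 287 and 276 FPKM in WT sham, with overlap.

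The striated muscle forms went the other way. Cox6a2 was at 2.31, 1.58 and 1.59 FPKM in WT IRI and at 3.29, 2.44 and 2.87 FPKM in WT sham (log2 change -0.46 ± 0.16, limma adjusted p = 0.0436). Cox8b was listed at 0 in WT IRI 13 and 24 and at 0.365 FPKM in WT IRI 49, against 2.97, 7.45 and 1.76 FPKM in WT sham (-2.03 ± 0.65, adjusted p = 0.0314). Both are low genes whose calls were lost in some alternatives. Cox6a2 did not pass without WT IRI 24 or 49, among others, and Cox8b did not pass without WT IRI 13 or 24 or without WT sham 1 or 2, with adjusted p up to 0.146 and 0.117. The ubiquitous partners Cox6a1 and Cox8a did not pass, Cox6a1 being at 979, 648 and 742 FPKM in WT IRI and at 694, 646 and 637 FPKM in WT sham. Of 8 markers of skeletal and heart muscle, 2 were in the table, summing to 0.866 to 2.44 FPKM in WT IRI and 0 in WT sham. Of 5 fat markers only Fabp4 was, at 32.8 to 90.1 FPKM in WT IRI and 44.5 to 51.2 FPKM in WT sham. Ckm, Mb, Ucp1 and Adipoq had no transcript there. Cox7a1, another muscle form that brown fat also expresses, was at 31.9, 22.1 and 49 FPKM in WT IRI and at 41.4, 41.0 and 44.4 FPKM in WT sham and overlapped. Cox7a2l, which joins complexes III and IV into supercomplexes, was at 187, 179 and 191 FPKM in WT IRI and at 157, 148 and 147 FPKM in WT sham, a rise of 0.30 ± 0.09 (limma adjusted p = 0.0245). The call was lost, among others, without any 1 of the WT sham libraries and in the fit of only these groups, with adjusted p up to 0.0885.

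All 13 mitochondrial members had negative log2 changes in WT IRI, between -0.04 for mt-Co2 and -1.94 for mt-Atp6, but mt-Nd6 alone passed the test. mt-Nd6 was at 80.0, 46.1 and 73.6 FPKM in WT IRI and at 94.7, 122 and 89.6 FPKM in WT sham (log2 change -0.63 ± 0.22, limma adjusted p = 0.0425), with WT IRI 24 lowest. The call was lost in 8 of 21 alternatives, among them those without WT IRI 24, without any 1 of the WT sham libraries and with only these groups fitted (adjusted p up to 0.148, without WT sham 2). The 12 genes of the other strand showed another order of libraries. mt-Nd5, for example, was at 675, 2438 and 1842 FPKM in WT IRI and at 2519, 2735 and 2580 FPKM in WT sham (-0.85 ± 0.36, adjusted p = 0.0879 by limma), with WT IRI 13 far below and WT IRI 24 close to sham. Over the 13 genes the median difference from the WT sham mean was -1.30 in WT IRI 13, 0.05 in WT IRI 24 and -0.41 in WT IRI 49. The median log2 change of the group was -0.18 without WT IRI 13 and -0.79 without WT IRI 24. Without WT IRI 24, 7 other mitochondrial members were called lower, mt-Nd2, mt-Nd4, mt-Nd4l, mt-Nd5, mt-Co1, mt-Atp6 and mt-Atp8, at -0.75 to -3.05. How many of all genes were called without that library is not given.

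mt-Atp6, the proton-channel subunit of ATP synthase (chrM:7927-8607), broke from its neighbours. It was at 239, 3677 and 561 FPKM in WT IRI 13, 24 and 49 and at 2853, 3121 and 3172 FPKM in WT sham, so 2 injured libraries were far below sham and 1 was above it (-1.94 ± 0.73, limma adjusted p = 0.0589). mt-Atp8, which shares the 43 bases shown above and its RNA, was at 813, 2026 and 1509 FPKM in WT IRI and at 1898, 2103 and 2024 FPKM in WT sham. The next gene downstream, mt-Co3, was at 1280, 2919 and 2380 FPKM in WT IRI and at 2762, 2889 and 2664 FPKM in WT sham. The ratio of mt-Atp6 to mt-Co3 was accordingly 0.187 in WT IRI 13 and 0.236 in WT IRI 49, against 1.26 in WT IRI 24 and 1.03, 1.08 and 1.19 in WT sham. In CKO libraries it was 1.2, 0.575 and 1.21 after IRI and 1.15, 1.05 and 0.967 after sham. CKO IRI 15 was thus the only other library with a ratio under 0.967. Without WT IRI 24 the change of mt-Atp6 was -3.05 ± 0.34 (limma adjusted p = 0.000428). The genes of the other overlapping pair kept the same order of libraries as each other: mt-Nd4l was at 490, 1395 and 929 FPKM in WT IRI and at 1284, 1496 and 1349 FPKM in WT sham. Its partner mt-Nd4 was at 1102, 3676 and 2662 FPKM in WT IRI and at 3457, 3743 and 3436 FPKM in WT sham.

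**Figure D3:**
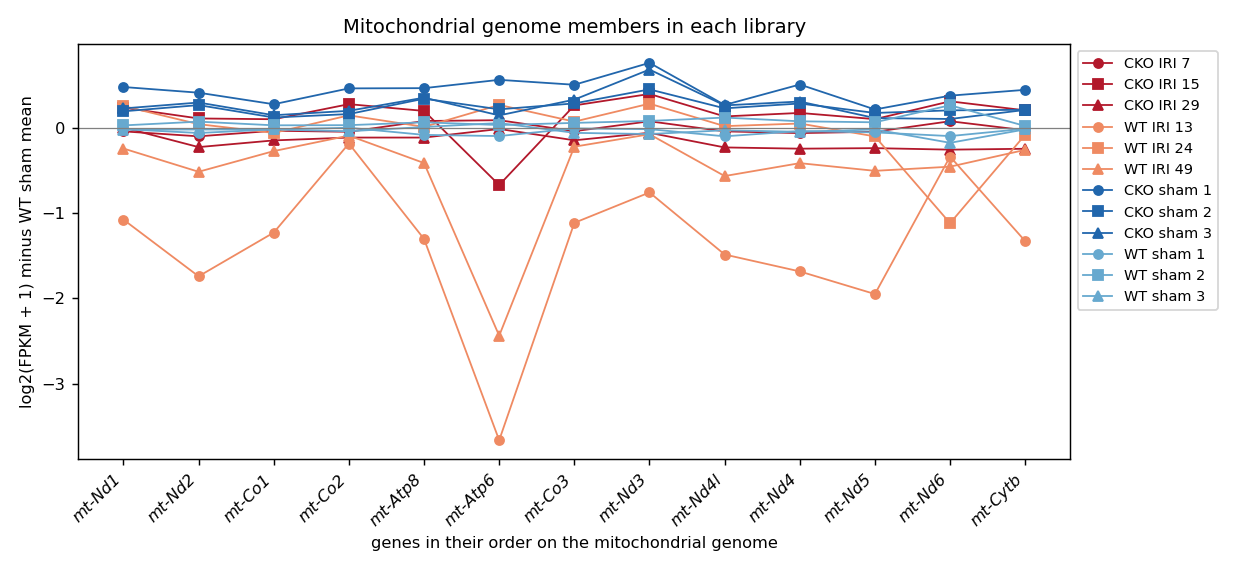
Difference of each library from the WT sham mean, in log2(FPKM + 1), for the 13 mitochondrial members in their order on the mitochondrial genome; 1 line per library. WT IRI 13 lay below the others at most genes, mt-Atp6 dropped further in WT IRI 13 and 49 (239 and 561 FPKM), and WT IRI 24 was low at mt-Nd6 (46.1 FPKM).

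Genes that copy and process mitochondrial nucleic acids were counted against the same 25.1% higher and 11.9% lower of all genes. Of 18 genes for replication and transcription of mitochondrial DNA, 1 was higher and 2 lower in WT IRI with a median of 0.07. The 2 of smallest p were Mterf2, a termination factor family member (-0.78, limma adjusted p = 0.0104), and Tfb2m, a factor that starts transcription (-0.39, adjusted p = 0.0217). Of 19 genes for processing and stability of mitochondrial RNA, 2 were higher and 2 lower with a median of -0.15. They included Grsf1, a granule protein that binds G-rich RNA (-0.58, limma adjusted p = 0.018), and Tbrg4, an RNA-binding FASTK protein (0.93, adjusted p = 0.0181). No gene of these lists, nor of the tricarboxylic acid cycle, ubiquinone or assembly factor lists, passed in the other comparisons.

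Transcript length ran with the direction of change among the nuclear members. The 23 longest, with main transcripts of 1363 to 3632 nt, had a median log2 change of -0.34 in WT IRI with 6 lower and none higher, while the 23 shortest, at 360 to 571 nt, had a median of 0.09 with 1 higher and 1 lower. Per library, Spearman's rho between length and the difference from the WT sham mean over the 92 genes was -0.28, -0.31 and -0.45 in WT IRI, -0.40, -0.56 and -0.07 in CKO IRI, -0.55, -0.49 and -0.38 in CKO sham. Each WT sham library was set against the mean of the other WT sham libraries, here and over all genes, and its rho was -0.16, 0.01 and 0.15 in WT sham 1, 2 and 3. Over all 12459 tested genes with a length the values were -0.17, -0.11 and -0.20 in WT IRI, -0.03, -0.21 and -0.07 in CKO IRI. They were -0.30, -0.21 and -0.22 in CKO sham and -0.22, 0.14 and 0.10 in WT sham. These correlations are across genes of single libraries, which are not independent replicates, and whether RNA quality entered them was not tested. The 5 large subunits that fell in WT IRI, Ndufs1, Sdha, Uqcrc2, Atp5b and Atp5a1, were among the 23 longest. In CKO sham 1, without injury, Ndufs1 was at 40.6, Sdha at 167 and Atp5b at 506 FPKM, against 98.0, 297 and 939 FPKM in WT sham 1.

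**Figure D4:**
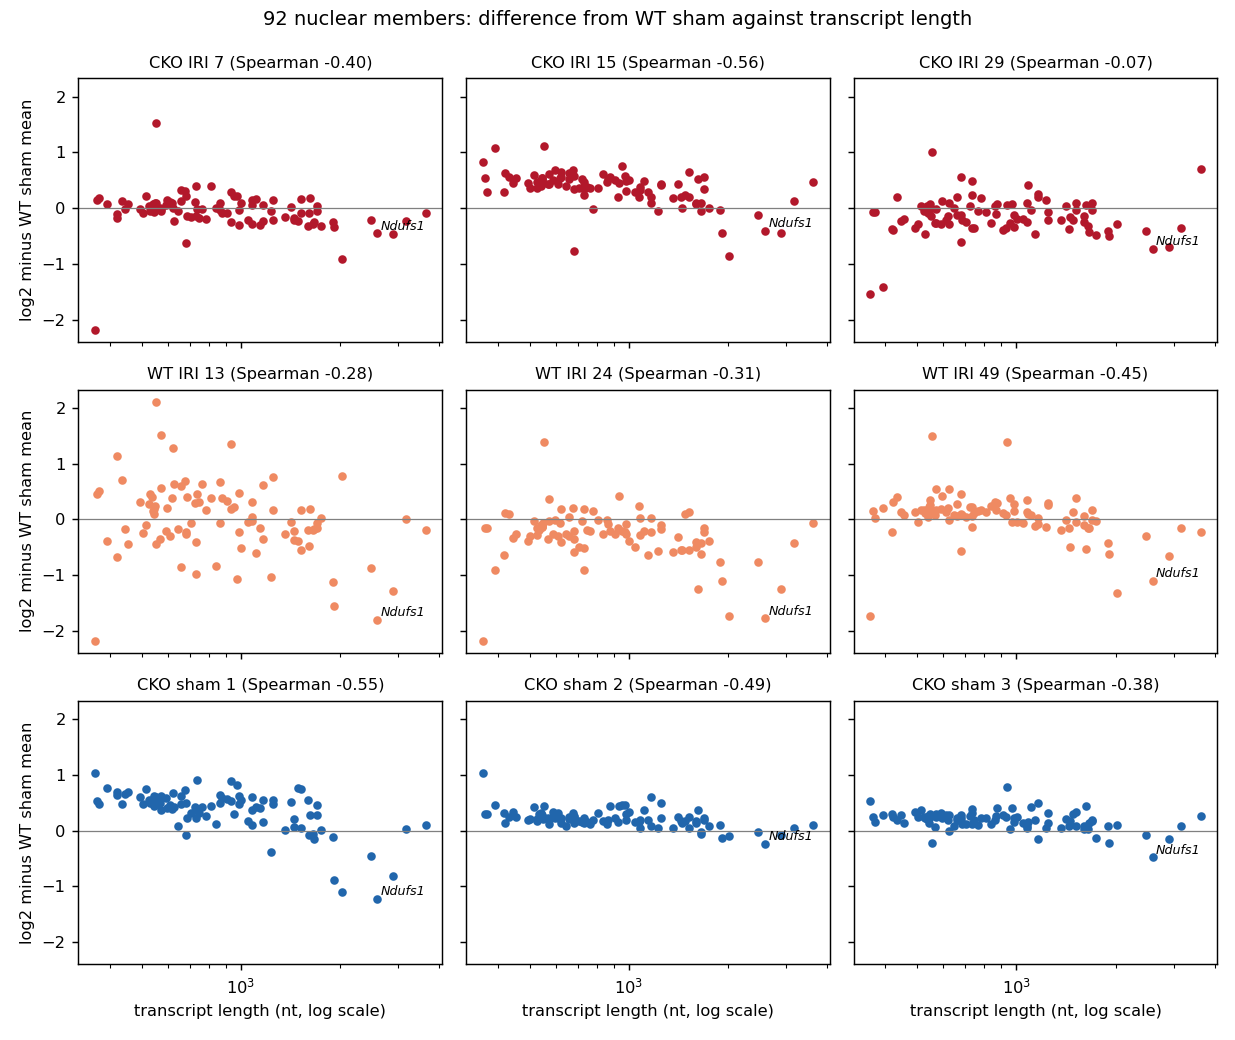
Difference from the WT sham mean in log2(FPKM + 1) against main transcript length (nt, log scale) for the 92 nuclear members, 1 panel per CKO IRI, WT IRI and CKO sham library, with Ndufs1 named. Spearman's rho was negative in all 9 panels, from -0.56 in CKO IRI 15 to -0.07 in CKO IRI 29.

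In CKO kidneys 2 members passed the test after injury, 1 higher and 1 lower, both low complex IV paralogues, where 7.19% of all tested genes were called, 5.70% higher and 1.48% lower. Cox6b2 was at 14.7, 10.8 and 9.93 FPKM in CKO IRI and at 6.78, 6.39 and 3.67 FPKM in CKO sham (log2 change 0.97 ± 0.25, limma adjusted p = 0.0419). Cox6a2 was at 1.51, 1.27 and 1.53 FPKM in CKO IRI and at 2.65, 3.64 and 3.69 FPKM in CKO sham (-0.82 ± 0.16, limma adjusted p = 0.0113). Neither gene's groups overlapped, but the call of Cox6b2 held in 11 of 21 alternatives. It was lost without CKO IRI 7 or 29, without any 1 of the sham libraries of either genotype and in the fit of only these groups. Cox6a2 was not called without CKO sham 2 or 3. The large subunits that fell in WT IRI did not pass here. Ndufs1 was at 70.4, 72.8 and 58.0 FPKM in CKO IRI and at 40.6, 81.7 and 68.9 FPKM in CKO sham (0.12 ± 0.25). Atp5b was at 743, 685 and 657 FPKM in CKO IRI and at 506, 853 and 803 FPKM in CKO sham (-0.02 ± 0.24). Sdha was at 215, 216 and 182 FPKM in CKO IRI and at 167, 280 and 265 FPKM in CKO sham (-0.19 ± 0.21). In each of these 3 the CKO sham libraries spanned the CKO IRI values, because CKO sham 1 was below every CKO IRI library and CKO sham 2 was above.

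Most members nonetheless leaned lower in CKO IRI than in CKO sham: 93 of 105 changes were negative, with medians of -0.19 over nuclear and -0.31 over mitochondrial members and 0.08 over all genes. In all, 15 members lay lower without overlap, 10 of them mitochondrial, where 10.1% of all genes did. Among nuclear ATP synthase genes these included Atp5c1, the gamma subunit that turns inside the catalytic head, at 272, 342 and 370 FPKM in CKO IRI and at 468, 485 and 454 FPKM in CKO sham (-0.53 ± 0.17, limma adjusted p = 0.0931). The deposited values of Atp5c1 were also divided between its transcripts in a way that did not follow the groups, and how this arose was not tested. One of these transcripts was at 164 to 232 FPKM in CKO IRI 7 and 15, WT IRI 49 and WT sham 1 and 2 and at 0 to 3.14 FPKM in the other 7 libraries. The sum of the gene was 265 and 308 FPKM in WT sham 1 and 2 but 402 FPKM in WT sham 3. Leaving out CKO IRI 15, the injured CKO library with the highest nuclear share, raised the calls from 2 to 7, with Atp5d, Sdhb, Cox6c, Ndufa1 and Cox8b called lower, and shifted the nuclear median to -0.33. The share of all genes called without CKO IRI 15 is not given, so the added calls cannot be read as particular to the members. The nuclear median was -0.07 without CKO IRI 29 and -0.13 without CKO sham 1.

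**Figure D5:**
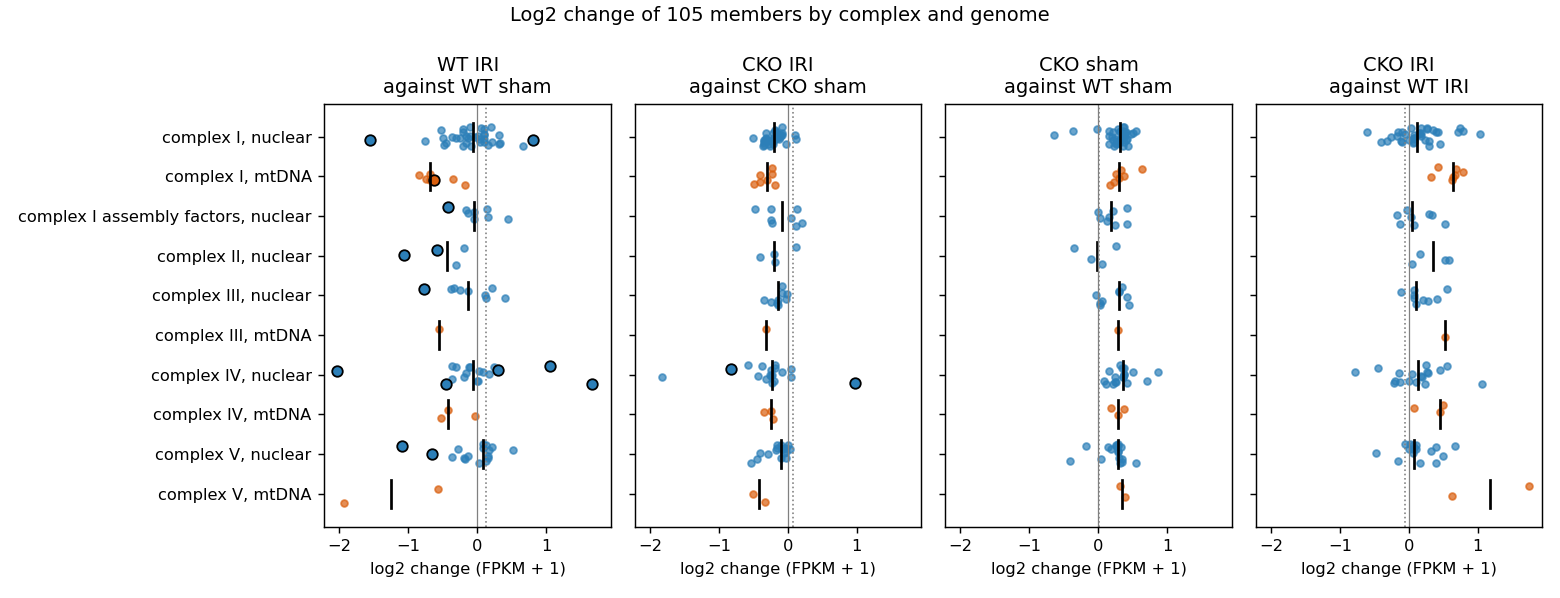
Log2 change (FPKM + 1) of each of the 105 members in 4 comparisons, by complex and by genome (blue nuclear, orange mitochondrial); large outlined points passed the test at an adjusted p under 0.05, black bars are medians and the dotted line is the median of all tested genes. Mitochondrial medians lay left of 0 in both IRI comparisons (-0.57 over the 13 genes in WT, -0.31 in CKO) and right of it in both genotype comparisons (0.30 in sham, 0.62 after IRI).

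Between the genotypes without injury, the members were shifted upwards in CKO by a small amount that no single gene carried past the test. Of 105 members, 96 were higher on average in CKO sham than in WT sham, with medians of 0.29 over nuclear and 0.30 over mitochondrial members, beside 0.01 over all tested genes. In 74 members every CKO sham library was above every WT sham library, where 15% of all genes were, and in 3 members every CKO sham library was below, where 13.4% of all genes were. No member was called by limma, as no gene of the table was (0.0%). An unadjusted limma p under 0.05 was reached by 16 of the 105 members and by 816 of the 12469 genes tested. A fit with array weights, which gives CKO sham 1 less weight than the other sham libraries, called 3, Ndufa3, Ndufa12 and mt-Nd3. The share of all genes called in that fit is not given. The shift was present in each library. The median difference from the WT sham mean over nuclear members was 0.46, 0.20 and 0.20 in CKO sham 1, 2 and 3. WT sham 1, 2 and 3, each set against the mean of the other WT sham libraries, gave 0.08, -0.02 and -0.07. The shift was largest in CKO sham 1, without which the medians were 0.21 for both genomes. Over all alternatives run, scalings included, the nuclear median stayed between 0.19 and 0.34 and the mitochondrial one between 0.14 and 0.36. Summed proximal tubule markers overlapped between these groups, at 7593 to 9487 FPKM in CKO sham and 7425 to 7718 FPKM in WT sham, and Kap alone accounted for 7053, 5034 and 4158 FPKM in CKO sham and 4195, 4485 and 4115 FPKM in WT sham. Of the 8 markers, Cubn (38.3, 60.2 and 58.6 FPKM in CKO sham, 66.3, 66.4 and 71.4 FPKM in WT sham) and Slc22a6 (107, 148 and 162 FPKM in CKO sham, 182, 172 and 192 FPKM in WT sham) were lower in every CKO sham library, and the other 6 overlapped. Summed macrophage and monocyte markers were higher without overlap, at 82.4 to 113 FPKM in CKO sham and 57.8 to 69.8 FPKM in WT sham. Summed endothelial markers were too, at 71.5 to 109 FPKM in CKO sham and 67.4 to 70.3 FPKM in WT sham. Single markers of these lists were mixed. Lyz2 and Emcn were higher in every CKO sham library, Adgre1 and Kdr were lower in every one, and the rest overlapped. Summed distal convoluted tubule markers were lower without overlap, at 194 to 246 FPKM in CKO sham and 282 to 360 FPKM in WT sham. Of these, Slc12a3 was lower in every CKO sham library and Pvalb overlapped. The part of these markers in the shift was not tested.

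By complex, the nuclear medians in CKO sham over WT sham were 0.32 in complex I, 0.19 in its assembly factors, -0.02 in complex II, 0.30 in complex III, 0.35 in complex IV and 0.28 in complex V. The smallest p belonged to Ndufa3, a supernumerary subunit of complex I, at 287, 228 and 220 FPKM in CKO sham and at 178, 172 and 163 FPKM in WT sham (log2 change 0.51 ± 0.16, limma adjusted p = 0.748). mt-Nd3, a small core subunit of complex I, was at 1188, 957 and 1125 FPKM in CKO sham and at 692, 740 and 665 FPKM in WT sham (0.64 ± 0.23, limma adjusted p = 0.748). Both genes were higher in every CKO sham library. Cox7c, a complex IV subunit, was at 578, 500 and 483 FPKM in CKO sham and at 416, 397 and 392 FPKM in WT sham (0.37 ± 0.14, adjusted p = 0.748 by limma). The 3 members below WT sham in every CKO sham library were Ndufs1, Sdha and Atp5b. They also fell in WT IRI, in a comparison that uses the same WT sham libraries. Ndufs1 had a log2 change of -0.64 ± 0.25 in CKO sham against WT sham (limma adjusted p = 0.748). For these 3 the gap was widest in CKO sham 1, whereas CKO sham 2 held 81.7, 280 and 853 FPKM, against 98.0, 297 and 939 FPKM in WT sham 1. Among the nuclear members the 23 longest had a median of 0.06 and the 23 shortest a median of 0.35 in this comparison.

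After injury, 3 of the 5 large subunits that had fallen in WT kidneys, Ndufs1, Uqcrc2 and Atp5b, were higher in every library labelled CKO than in any labelled WT. They did not pass the test, and Sdha and Atp5a1 overlapped. These 5 had been picked out by low values in the same WT IRI libraries, so this comparison is not independent of that choice. No member was called by limma, where 0.0401% of all genes were called and 0.0241% were called higher. An unadjusted limma p under 0.05 was reached by 21 of the 105 members and by 2609 of the 12469 genes tested. Medians were 0.10 over nuclear and 0.62 over mitochondrial members, beside -0.05 over all genes, and 81 of 105 changes were positive. Leaving out CKO IRI 15 turned the nuclear median to -0.04, and leaving out CKO IRI 29 made it 0.21. Ndufs1 was at 70.4, 72.8 and 58.0 FPKM in CKO IRI and at 26.9, 27.5 and 44.4 FPKM in WT IRI, so that every CKO library was above every WT library (log2 change 1.03 ± 0.25, limma adjusted p = 0.124). Uqcrc2 was at 222, 257 and 199 FPKM in CKO IRI and at 120, 154 and 195 FPKM in WT IRI (0.55 ± 0.17, limma adjusted p = 0.141). Atp5b was at 743, 685 and 657 FPKM in CKO IRI and at 316, 436 and 605 FPKM in WT IRI (0.67 ± 0.24, limma adjusted p = 0.168). In these 3 genes WT IRI 49 was the WT library nearest to CKO IRI. Sdha was at 215, 216 and 182 FPKM in CKO IRI and at 121, 124 and 187 FPKM in WT IRI. Atp5a1 was at 509, 543 and 444 FPKM in CKO IRI and at 320, 346 and 477 FPKM in WT IRI. In both, WT IRI 49 was above the lowest CKO IRI library.

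Of 105 members, 10 lay higher in every CKO IRI library than in any WT IRI library, where 7.11% of all genes did, and 2 lay lower, where 11.5% did. The 2 lower were Cox7a2l, at 168, 174 and 161 FPKM in CKO IRI and at 187, 179 and 191 FPKM in WT IRI, and Cox6a2, at 1.51, 1.27 and 1.53 FPKM in CKO IRI and at 2.31, 1.58 and 1.59 FPKM in WT IRI. Among the supernumerary subunits of complex I, Ndufb4 was at 173, 222 and 156 FPKM in CKO IRI and at 70.6, 126 and 143 FPKM in WT IRI (log2 change 0.74 ± 0.24, limma adjusted p = 0.146). Ndufa4l2 went the other way, at 4.79, 5.47 and 3.94 FPKM in CKO IRI and at 11.1, 5.31 and 11.3 FPKM in WT IRI, where WT IRI 24 lay within the CKO values (-0.78 ± 0.25, adjusted p = 0.147 by limma). The mitochondrial median rested on WT IRI 13: it was 0.15 without that library and 0.77 without WT IRI 24. mt-Nd6 was the 1 mitochondrial member without overlap, at 107, 126 and 84.7 FPKM in CKO IRI and at 80.0, 46.1 and 73.6 FPKM in WT IRI (0.68 ± 0.22, limma adjusted p = 0.146).

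Which library was left out changed the count of calls between the injured groups. Shares of all genes called in these alternative fits are not given, so the counts cannot be read as particular to the members. Without WT IRI 49, 11 members were called higher in CKO IRI: Ndufs1, Ndufa12, Ndufb4 and Ndufb10 of complex I, Sdha and Sdhd of complex II, Cyc1 and Uqcrc2 of complex III and Atp5a1, Atp5b and Atp5f1 of complex V. Ndufs1 then had a log2 change of 1.26 ± 0.24 (limma adjusted p = 0.0163). Without WT IRI 24, mt-Atp6 alone was called, at 2.86 ± 0.34 (limma adjusted p = 0.0153). With array weights Ndufs1, Uqcrc2 and mt-Nd6 were. The 14 genes of the tricarboxylic acid cycle had a median of 0.45 in CKO IRI over WT IRI, with none called. An unadjusted limma p under 0.05 was reached by 10 of the 14 and by 2609 of the 12469 genes tested. In the same WT IRI libraries 10 of the 14 had been called lower than in WT sham, so the comparison is not independent of that fall. Summed proximal tubule markers overlapped between the injured groups, at 2514 to 6499 FPKM in CKO IRI and 1496 to 4295 FPKM in WT IRI. Those of tubular injury did too, at 213 to 916 FPKM in CKO IRI and 456 to 916 FPKM in WT IRI, and their part in these differences was not tested.

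Whether injury acted differently by genotype was tested as an interaction, the change in CKO minus the change in WT, and no member passed. Of all genes 0.016% passed, 0.00802% in each direction. An unadjusted limma p under 0.05 was reached by 9 of the 105 members and by 2233 of the 12469 genes tested. The comparisons it joins share libraries, so their values are given side by side. Ndufs1 changed by 0.12 ± 0.25 in CKO and -1.56 ± 0.25 in WT, an interaction of 1.68 ± 0.36 (limma adjusted p = 0.176). Atp5b changed by -0.02 ± 0.24 in CKO and -1.09 ± 0.24 in WT (1.07 ± 0.34, limma adjusted p = 0.191). Sdha changed by -0.19 ± 0.21 in CKO and -1.06 ± 0.21 in WT (0.88 ± 0.30, limma adjusted p = 0.214). Ndufa4l2 changed by -0.43 in CKO and 1.05 in WT (-1.48 ± 0.36, limma adjusted p = 0.188). CKO sham 1 entered the first 3 of these with values far below the other sham libraries. Array weights were low in CKO IRI 15 and 29 (0.45 and 0.327), WT IRI 13 and 49 (0.237 and 0.332) and CKO sham 1 (0.411). With them, Ndufs1, Atp5b and Sdha passed at adjusted p of 0.0273, 0.0363 and 0.0444 in limma. Without WT IRI 49 Ndufs1 and Atp5b passed. Without WT IRI 13 and CKO sham 1 together none passed.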

How the data were processed

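RNA-seq of mouse renal cortex was deposited by the authors as 1 table of 25790 transcripts in 12 libraries. The values were read as FPKM, since the deposited header does not name the unit; had they been TPM, values would differ by 1 factor per library. Per the submitters' processing notes, reads were handled with cutadapt, HISAT2 2.1.0 and StringTie. The notes name a human build although the transcript IDs are mouse, and the labels' extraction protocol speaks of another tissue than the kidney given in the tissue field; of the cartilage markers Col2a1, Acan, Prg4 and Comp, only Comp was in the table. The read depth is unknown; library sums were 391002 to 422328 FPKM. The sources used here do not say how strand was used in counting.

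Transcripts were named from GENCODE M21 (25740 matched; the other 50 held at most 0.103% of a library) and summed to 13465 genes. The 12469 genes with at least 1 FPKM in 3 libraries were tested on log2(FPKM + 1) with limma 3.58.1 in R 4.3.3, with 4 group means in 1 fit over 12 libraries (8 residual degrees of freedom), moderated variances with a mean trend, and Benjamini-Hochberg adjustment over all genes at 0.05. Changes on this scale understate those of low genes. Alternatives changed the pseudocount, filter, scaling, weights or libraries, or fitted only the groups compared. With 3 libraries against 3, an exact two-sided permutation test cannot go below 0.1, so single values rest on the limma fit.

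Members and gene lists were chosen with earlier results of these data known. Genes named were members called in any comparison, in each comparison and complex the 2 of smallest p and the highest, all mitochondrial members, paralogous isoforms and, from each other list, the 2 of smallest p. Partner genes compared by ratio, members gained under alternatives and members singled out by overlap or transcript use were chosen after their values were seen.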

Additional observations from a re-analysis of the deposited data

Results flagged for a closer look

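For 4 members the groups did not overlap in either of 2 comparisons and the directions were opposite. Ndufs1 was lower in CKO sham than in WT sham and higher in CKO IRI than in WT IRI, with an interaction of 1.68 on the log2 scale (limma adjusted p = 0.176). Atp5b did the same, with an interaction of 1.07 (limma adjusted p = 0.191). Cox7a2l was higher in CKO sham than in WT sham, at 161, 168 and 159 FPKM against 157, 148 and 147 FPKM, and lower in CKO IRI than in WT IRI, with an interaction of -0.26 (limma adjusted p = 0.312). Ndufaf8, a complex I assembly factor, was at 39.1, 39.0 and 39.1 FPKM in WT IRI, above WT sham at 38.8, 35.7 and 30.5 FPKM, and at 30.3, 34.6 and 39.8 FPKM in CKO IRI, below CKO sham at 42.1, 39.8 and 40.7 FPKM, with an interaction of -0.39 (limma adjusted p = 0.274). The margins of Ndufaf8 were slight: the nearest libraries were at 39.0 against 38.8 FPKM in WT, and both at 39.8 FPKM as rounded in CKO. None of the 4 interactions passed the test.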

How the results depend on the processing

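The 14 members called in WT IRI against WT sham became 9 when only the groups compared were fitted and 25 with array weights, and 7 to 19 when 1 library was left out. The 2 called in CKO IRI against CKO sham became 1 with a filter of 5 FPKM, with quantile normalization and with only the groups compared, and 16 with array weights, and 0 to 7 when 1 library was left out. No member was called in CKO sham against WT sham, in CKO IRI against WT IRI or in the interaction, and array weights called 3 in each; leaving out 1 library gave 0 in the first, 0 to 11 in the second and 0 to 2 in the third. Leaving out WT IRI 13 and CKO sham 1 together, chosen after seeing the data, gave 12, 2, 0, 0 and 0. Calls among all genes are not given for the alternatives, so these counts cannot be set against a share of all genes. The cause of the differences between counts was not tested. A replicate block by sham number gave 0 calls. Same-numbered sham libraries did not deviate together (r of 0.004, -0.031 and -0.002 across genes). The values thus gave no sign that the numbers pair the samples, but they cannot exclude it. No called member changed direction in the alternatives run. Among medians of members, that of the mitochondrial interaction was 0.27 and became -0.15 without WT IRI 13, and the nuclear one in CKO IRI against WT IRI was 0.10 and became -0.04 without CKO IRI 15. Of 4442 values for the named members and the medians, 4214 stayed on their side of the threshold or within the spread between replicates, 116 moved, 64 were weaker and 48 stronger. Depth is unknown, so no limit from counting can be given.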
